A study of Mus musculus with 4 samples.

Results

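The 8 genes described here encode receptors that add a second, costimulatory signal to the T cell receptor: Tnfrsf9, Tnfrsf4, Tnfrsf18, Tnfrsf1b and Cd27 of the TNF receptor superfamily, Cd28 and Icos of the CD28 family, and Cd226 of the immunoglobulin superfamily. They were chosen by symbol and function, with earlier results of these data known. All 8 were among the 14082 genes of the 4 deposited tables. All 8 also passed the filter on low counts, beside 13358 genes in all. RNA came from CD8 T cells specific for ovalbumin that were sorted from E.G7 tumours, grown under the skin of mice 6 to 10 weeks old. E.G7 cells are mouse EL4 T lymphoma cells made to express ovalbumin. The 2 libraries labelled WT came from mice of genotype Smad4-fl/fl, in which loxP sites flank part of Smad4, and the 2 labelled KO from mice of genotype Cd8-cre Smad4-fl/fl. The floxed allele is thus shared by both groups, and Cre follows a Cd8 regulatory element, so any deletion is limited to cells that have used it. Nothing in the labels says whether a library is from 1 animal or a pool, or whether replicates are separate mice, so each p-value reflects the spread between these libraries alone, and that spread may be technical.

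A T cell that meets antigen needs a costimulatory signal to divide, survive and make cytokines. CD28 is present on most resting mouse T cells and recruits phosphoinositide 3-kinase and the PKC-theta pathway, and ICOS, its relative, appears after activation. Receptors of the TNF receptor superfamily bind trimeric ligands and recruit TRAF adaptors, which lead to the NF-kappaB factors. CD27 is already on naive T cells, whereas 4-1BB (Tnfrsf9), OX40 (Tnfrsf4) and GITR (Tnfrsf18) are induced or raised by antigen, and in tumours they mark cells that have met it recently.

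Library totals were 24366540 to 26218277 counts. Smad4 itself, the targeted gene, had 752 and 736 counts under the label WT and 779 and 1088 under the label KO, a log2 fold change of 0.19 (edgeR quasi-likelihood, Benjamini-Hochberg adjusted p = 0.397). A count over the whole gene includes exons outside the floxed part and reads of cells without Cre, so it cannot show whether that part was lost, and it neither bears out the labels nor speaks against them. Directions below are between libraries labelled KO and libraries labelled WT. Leaving out KO replicate 1 gave a Smad4 log2 fold change of 0.40, and leaving out KO replicate 2 gave -0.06. A p-value of either fit would not reflect the spread between the KO libraries and is not given. Transcripts of other cells were present in each library. Of 8 macrophage and monocyte markers 1 was higher, 1 lower and 6 did not pass, with a summed level of 16900 to 17600 CPM (counts scaled to library size with TMM factors) in WT and 16800 to 17500 in KO. Of 7 neutrophil markers 6 rose, from a summed 562 to 577 CPM to 1780 to 1800 CPM, and of 10 T lineage markers 7 fell and 3 did not pass, from 3190 to 3250 CPM to 2200 to 2210 CPM. Dendritic cell markers (2 of 8 lower, 1 higher, 5 not passing) summed to 1200 CPM in each WT library and to 878 and 875 CPM in KO. Most of that sum was Ccr7, at 1040 CPM in each WT library and 708 and 702 CPM in KO. The sum therefore mostly follows this 1 gene, and the marker that rose was Flt3 (log2 fold change 0.59, edgeR adjusted p = 0.00161). B cell markers (2 of 4 tested higher, 2 not passing) summed to 6.92 and 6.88 CPM in WT and 16.4 and 14.1 CPM in KO. Mitochondrial transcripts took 10.2% to 10.4% of counts in WT and 6.57% to 6.99% in KO. Their part in the values below was not tested, and in bulk RNA fewer cells of a type and less RNA per cell cannot be told apart.

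Every one of the 8 receptor transcripts was lower in the libraries labelled KO, with log2 fold changes from -1.22 to -0.37 and a median of -0.86, while the median over all 13358 tested genes was 0. Of all tested genes 21.2% were called in either direction, 11.0% lower and 10.1% higher, where a call is an adjusted p (Benjamini-Hochberg) under 0.05. The members' summed level was 1930 and 1940 CPM in the WT libraries and 1050 and 1130 CPM in the KO libraries. For each member both KO libraries lay below both WT libraries, which was so for 30.0% of all tested genes. The falls were of unequal size. Tnfrsf9, Cd226 and Cd27 retained 42.8%, 42.8% and 43.9% of their WT level, Icos 50.1% and Cd28 60.9%, whereas Tnfrsf18, Tnfrsf1b and Tnfrsf4 retained 69.8%, 72.9% and 77.6%.

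**Figure D1:**
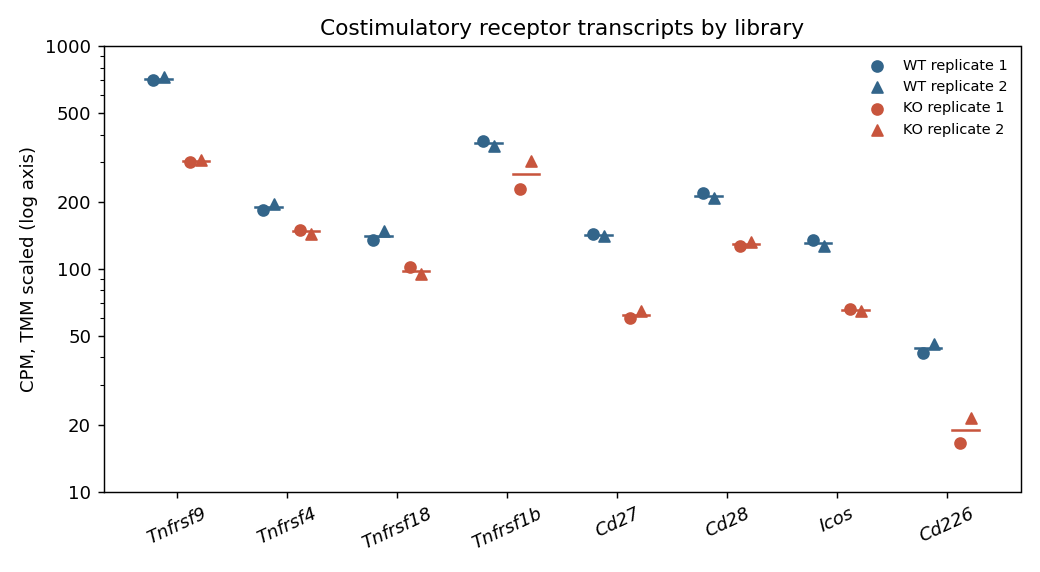
Level of each receptor transcript (CPM, TMM scaled, log axis) in the 2 libraries labelled WT (blue) and the 2 labelled KO (red), with circles for replicate 1, triangles for replicate 2 and a line at each group's mean. Both KO libraries lie below both WT libraries for all 8 genes, from 700 and 722 against 302 and 307 CPM for Tnfrsf9 to 42.1 and 46.2 against 16.5 and 21.3 CPM for Cd226.

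Among the TNF receptor superfamily members, Tnfrsf9 and Cd27 fell most. Tnfrsf9, which encodes 4-1BB, a receptor that appears on CD8 T cells after antigen contact, had 16596 and 18038 counts in WT and 8032 and 8276 in KO. Replicates were close and the groups far apart. Its level went from 711 ± 15 to 304 ± 3.26 CPM (SD, n = 2 each), a 2.34-fold fall with a 95% confidence interval of -1.34 to -1.11 on the log2 scale (edgeR quasi-likelihood, Benjamini-Hochberg adjusted p = 9.15e-09). By p-value it ranked 16 of 13358 genes. Cd27, the receptor for CD70 that supports T cell survival, had 3397 and 3514 counts in WT and 1600 and 1737 in KO. The level of Cd27 was 142 ± 1.96 CPM in WT and 62.3 ± 2.97 in KO (SD, n = 2 each), a log2 fold change of -1.19 with an SE of 0.07 (edgeR adjusted p = 1.15e-07).

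The neighbouring genes Tnfrsf4 and Tnfrsf18 had smaller falls. Tnfrsf4, which encodes OX40, a receptor for OX40L induced on activated T cells, had 4324 and 4884 counts in WT and 3982 and 3868 in KO. In raw counts the lowest WT library was only slightly above the KO libraries, and in CPM the values were 183 and 195 against 150 and 143. Its log2 fold change was -0.37 with an SE of 0.06 (edgeR adjusted p = 0.00109), the shallowest of the 8. Tnfrsf18, which encodes GITR, had 3182 and 3669 counts in WT and 2705 and 2547 in KO. This gave 141 ± 8.84 and 98.1 ± 5.19 CPM (SD, n = 2 each), a log2 fold change of -0.52 with an SE of 0.07 (edgeR adjusted p = 0.000232). The confidence intervals of Tnfrsf4 (-0.50 to -0.23) and Tnfrsf18 (-0.67 to -0.37) lay wholly above that of Tnfrsf9, whose upper limit was -1.11. An antisense gene, Gm16008, covers 27.2% of the exonic bases of Tnfrsf18, and the value of Tnfrsf18 is uncertain, because whether reads were counted by strand is not given in the sources used here.

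Tnfrsf1b, which encodes TNFR2, the TNF receptor of activated lymphocytes that myeloid cells also carry, had the widest spread between the KO libraries. It had 8916 and 8884 counts in WT, and 6085 and 8227 in KO. KO replicate 2 was therefore near the WT libraries and KO replicate 1 well below them, at 305 and 229 CPM against 376 and 355 CPM. The log2 fold change was -0.46 with an SE of 0.11 (edgeR adjusted p = 0.0156). It was -0.26 without KO replicate 1 and -0.68 without KO replicate 2. With a KO library left out, the spread was estimated from the WT libraries, so a p-value of these fits would not reflect the spread between the KO libraries. The call was lost, with a fold change of similar size, without WT replicate 1 (-0.42, edgeR adjusted p = 0.344), without WT replicate 2 (-0.49, edgeR adjusted p = 0.309) and in DESeq2 (-0.45, adjusted p = 0.125). Tnfrsf1a, which encodes the other TNF receptor, TNFR1, was at 120 ± 11.8 CPM in WT and 95.5 ± 2.38 in KO (SD, n = 2 each). Its log2 fold change was -0.33 (edgeR adjusted p = 0.00907), or -0.22 without WT replicate 1, where the call was lost (edgeR adjusted p = 0.146). The ratio of Tnfrsf1b to Tnfrsf1a counts was 2.94 and 3.19 in WT and 2.44 and 3.14 in KO, so the groups overlapped.

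Both tested members of the CD28 family chosen here, Cd28 and Icos, fell. Cd28, the receptor for CD80 and CD86, had 5157 and 5194 counts in WT and 3368 and 3568 in KO. Its level was 213 ± 6.96 CPM in WT and 129 ± 3.93 in KO (SD, n = 2 each), a log2 fold change of -0.72 with an SE of 0.06 (edgeR adjusted p = 3.36e-06). Icos, the inducible receptor for ICOSL, had 3170 and 3174 counts in WT and 1749 in each KO library. The corresponding levels were 130 ± 4.81 and 65.3 ± 0.681 CPM (SD, n = 2 each), with an SE of 0.07 on a log2 fold change of -1.0 (edgeR adjusted p = 5.96e-07). The ratio of Cd28 to Icos counts was 1.63 and 1.64 in WT and 1.93 and 2.04 in KO, without overlap. This ratio was not tested, since the smallest p of an exact two-sided permutation test with 2 libraries a group is 0.333. The confidence intervals of Cd28 (-0.85 to -0.59) and Icos (-1.15 to -0.85) met at their ends.

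Cd226, which encodes DNAM-1, an adhesion and costimulatory receptor for PVR and nectin-2 on target cells, was the least abundant member. It had 998 and 1154 counts in WT and 440 and 574 in KO. Relative to its mean, the spread within each group was wider than for Tnfrsf9 or Cd27, yet every KO value was below every WT value. Its level was 44.1 ± 2.86 CPM in WT and 18.9 ± 3.34 in KO (SD, n = 2 each), a log2 fold change of -1.22 with an SE of 0.13 (edgeR adjusted p = 2.98e-05).

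**Figure D2:**
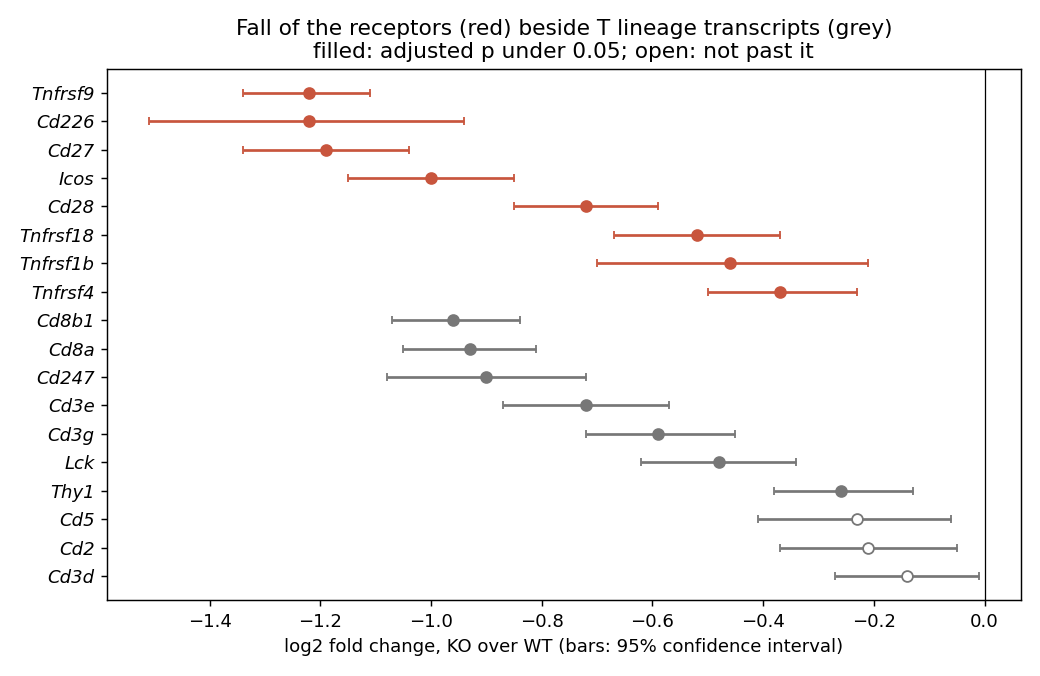
Log2 fold change, KO over WT, of the 8 receptors (red) and of 10 T lineage transcripts (grey), with 95% confidence intervals from the edgeR fit (filled points passed an adjusted p of 0.05). The receptors run from -1.22 for Tnfrsf9 to -0.37 for Tnfrsf4, and the T lineage transcripts from -0.96 for Cd8b1 to -0.14 for Cd3d.

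Levels of different genes can be set side by side only per length, so the order of the members was read from the deposited FPKM (fragment counts scaled for gene length and depth) within each library. Tnfrsf9 was first in all libraries, at 247 and 256 FPKM in WT and 108 and 109 in KO. Tnfrsf4 was the second at 129 and 138 FPKM in WT, and in KO, at 106 and 102 FPKM, it stood close to Tnfrsf9. Tnfrsf9 made up 35.8% of the members' summed FPKM in WT and 26.3% in KO. Tnfrsf1b (94.7 and 89.8 FPKM in WT) and Tnfrsf18 (84.7 and 92.9) were not separated beyond their spread, in KO either (58.1 and 77.2 against 64.7 and 59.9). Cd27 followed at 59.2 and 58.2 FPKM in WT and 25.1 and 26.7 in KO. Icos stood above Cd28 in WT (37.5 and 35.7 against 34.2 and 32.7 FPKM) and below it in KO (18.6 and 18.3 against 20.1 and 20.9), without overlap in either group. Cd226 was last, at 8.28 and 9.10 FPKM in WT and 3.28 and 4.20 in KO.

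T lineage transcripts were also lower in the libraries labelled KO, so each receptor was set against the CD3 chains (Cd3d, Cd3e, Cd3g and Cd247 summed) and the CD8 chains (Cd8a and Cd8b1 summed) of its own library. The summed CD3 chain counts were 33190 and 35654 in WT and 26428 and 27109 in KO, and the CD8 chain counts 18426 and 18964 in WT and 10538 and 10935 in KO. Beside the summed CD3 chains the members divided. The chains themselves did not fall alike: Cd3d retained 90.7% of its WT level, Cd3g 66.7%, Cd3e 60.7% and Cd247 53.6%. The division below therefore holds for the sum and would differ with a single chain as the reference. Tnfrsf9 had 50 and 50.6 counts for every 100 CD3 chain counts in WT and 30.4 and 30.5 in KO, or 60.6% of the WT ratio. Cd226 was also at 60.6%, Cd27 at 62.0%, Icos at 70.8% and Cd28 at 86.0%, each with KO below WT in every library. For Tnfrsf18 (9.59 and 10.3 in WT, 10.2 and 9.4 in KO) and Tnfrsf1b (26.9 and 24.9 in WT, 23.0 and 30.3 in KO) the groups overlapped. Tnfrsf4 was the only member with both KO libraries above both WT libraries, at 13.0 and 13.7 counts in WT and 15.1 and 14.3 in KO.

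Set against the CD8 chains, which fell more than the CD3 chains, fewer receptors stayed below WT. Tnfrsf9 kept 82.0% of the WT ratio (90.1 and 95.1 counts for every 100 CD8 chain counts in WT, 76.2 and 75.7 in KO), Cd27 84.0% and Cd226 81.9%. Cd226 had 5.42 and 6.09 such counts in WT and 4.18 and 5.25 in KO, so KO replicate 2 lay just below WT replicate 1. Icos, at 96.0%, differed by little (17.2 and 16.7 in WT, 16.6 and 16.0 in KO). Cd28 was higher in KO by this measure, at 28.0 and 27.4 in WT and 32 and 32.6 in KO, and so were Tnfrsf4 (149% of the WT ratio), Tnfrsf18 (134%) and Tnfrsf1b (140%). Only Tnfrsf9, Cd27, Cd226 and Icos were thus lower in KO beside both references. Beside the CD8 chains the gap was small for Icos and between the nearest libraries of Cd226. These ratios are given as descriptions and were not tested. E.G7 is itself a T cell tumour, so the share of CD3 chain or receptor transcripts that came from tumour cells was not tested.

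**Figure D3:**
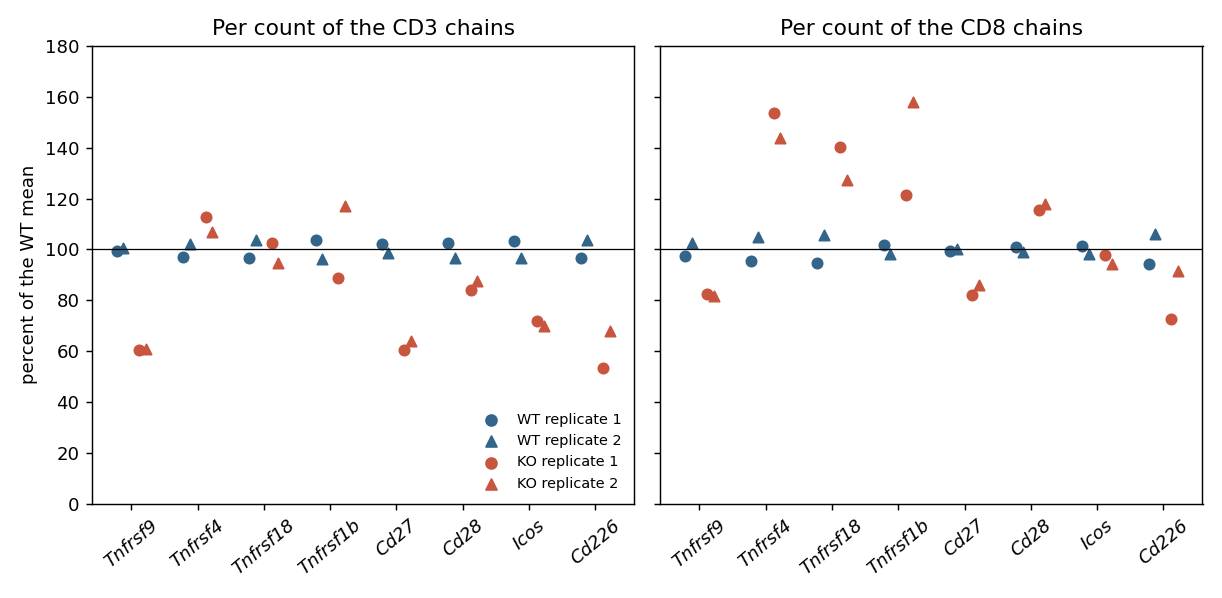
Counts of each receptor divided by the CD3 chain counts (left) or the CD8 chain counts (right) of the same library, as a percent of the WT mean, with WT in blue and KO in red. Tnfrsf9, Cd27 and Cd226 lie below 100% in both KO libraries in both panels, and Tnfrsf4 lies above it in both.

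Of 7 markers of regulatory and helper CD4 T cells, which carry much OX40, GITR and ICOS, 1 rose, 2 fell and 4 did not pass, and their summed level was 304 to 332 CPM in WT and 279 to 283 in KO. Most of that sum was Ccr8 and Ikzf2 (Ikzf2 at 103 ± 1.17 CPM in WT and 89.9 ± 0.542 in KO), so it mostly follows these genes. Foxp3, the defining factor of regulatory T cells, was at 9.57 ± 2.34 CPM in WT and 10.5 ± 0.585 in KO (SD, n = 2 each; log2 fold change 0.14, edgeR adjusted p = 0.694). Cd4 rose from 29.6 ± 3.73 to 65.4 ± 3.25 CPM (log2 fold change 1.14, edgeR adjusted p = 7.42e-06). The 2 that fell were Ccr8, a chemokine receptor gene, from 121 ± 16.1 to 75.1 ± 1.62 CPM (log2 fold change -0.69, edgeR adjusted p = 0.000120), and Ikzf4, from 17 ± 1.59 to 5.91 ± 0.651 CPM (log2 fold change -1.53, edgeR adjusted p = 7.41e-05). Cd4, Ccr8, Ikzf2 and Ikzf4 were named after their values were seen, and the part of such cells in the levels of Tnfrsf4, Tnfrsf18 and Icos was not tested. For the 4 markers of natural killer cells that were listed, cells which carry CD226 and CD27, 1 fell and 3 did not pass. The summed level was 9.50 and 10.8 CPM in WT and 7.63 and 6.41 in KO. Most of it was Gzma, which did not pass (8.27 and 8.96 CPM in WT, 6.58 and 5.11 in KO). The marker that fell was Klra9, a gene of few reads, with 10 and 10 counts in WT and 0 and 0 in KO (edgeR adjusted p = 0.0262). Ncr1, a defining receptor of these cells, stood at 0.384 ± 0.305 and 0.352 ± 0.498 CPM.

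By position, 4 members lie on chromosome 4 and the CD28 family genes on chromosome 1 (GRCm38, GENCODE M21). Tnfrsf4 (chromosome 4, 156013843 to 156016612) and Tnfrsf18 (156026164 to 156028895) are both on the plus strand with 9.55 kb and no other protein-coding gene between them, and they had 2 of the 3 smallest falls. Tnfrsf9 (150914562 to 150946102, plus strand) and Tnfrsf1b (145213463 to 145246870, minus strand) are megabases away. Tnfrsf9 lies within the span of Camta1 on the opposite strand and Cd27 overlaps Vamp1, but they share 0 exonic bases with them. Cd28 (chromosome 1, 60716800 to 60773359) and Icos (60977927 to 61000320) flank Ctla4 (60887000 to 60915832), and all lie on the plus strand. Ctla4, the inhibitory receptor that competes with CD28 for CD80 and CD86, went from 275 ± 8.05 to 113 ± 6.72 CPM (SD, n = 2 each; log2 fold change -1.29, edgeR adjusted p = 2.41e-08). Along this locus the log2 fold changes were -0.72 for Cd28, -1.29 for Ctla4 and -1.0 for Icos. The ratio of Cd28 to Ctla4 counts was 0.775 and 0.771 in WT and 1.17 and 1.13 in KO. Cd27 is on chromosome 6 (125232622 to 125237010, minus strand). All 8 are annotated as protein coding.

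Promoter sequences are shown for 3 members of the TNF receptor superfamily, the deep-falling Tnfrsf9 and Cd27 and the shallow-falling Tnfrsf1b, because these genes moved together to different depths. Each is the 250 bases before a RefSeq start (GRCm38.p6), free of exons annotated in GENCODE M21, in the direction of transcription. RefSeq entries were found for 5 of the 8 members. Capitals mark any match, on either strand, to 3 short motifs: TGANTCA for AP-1, TGGAAA for NFAT and CAGACA for SMAD proteins.
Tnfrsf9, chr4:150919905-150920154, plus strand: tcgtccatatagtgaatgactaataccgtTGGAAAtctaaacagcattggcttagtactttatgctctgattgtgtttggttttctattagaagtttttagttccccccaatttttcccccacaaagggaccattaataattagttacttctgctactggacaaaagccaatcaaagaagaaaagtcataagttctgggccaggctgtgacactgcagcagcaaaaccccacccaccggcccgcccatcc
Cd27, chr6:125237028-125237277, minus strand: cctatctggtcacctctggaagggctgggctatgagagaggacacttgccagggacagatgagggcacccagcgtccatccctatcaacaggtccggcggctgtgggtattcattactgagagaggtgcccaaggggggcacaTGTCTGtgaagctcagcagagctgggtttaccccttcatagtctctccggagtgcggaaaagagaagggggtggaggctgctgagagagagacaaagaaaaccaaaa
Tnfrsf1b, chr4:145246871-145247120, minus strand: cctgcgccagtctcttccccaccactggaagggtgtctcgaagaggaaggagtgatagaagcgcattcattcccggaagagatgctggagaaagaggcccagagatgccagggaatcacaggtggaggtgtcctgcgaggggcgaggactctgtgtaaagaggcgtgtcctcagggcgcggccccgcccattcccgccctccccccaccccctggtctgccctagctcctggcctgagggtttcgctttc
The Tnfrsf9 window held 1 match to the NFAT motif, TGGAAA, beginning 221 bases before the start, and the Cd27 window 1 match to the SMAD motif, read as TGTCTG on this strand, beginning 107 bases before the start. The Tnfrsf1b window held none of the 3. Matches did not follow the depth of the fall: the windows of Tnfrsf4 and Tnfrsf18, which fell less, held 1 NFAT match (220 bases before the start) and 1 SMAD match (69 bases before it), and a second RefSeq start of Tnfrsf9 had 1 AP-1 match and no NFAT match. Those windows are not printed because annotated exons reach into them. Of 32851 promoter windows of the same length, 18.6% held the NFAT motif, 17.1% the SMAD motif and 6.75% the AP-1 motif. The motifs do not overlap one another in these windows, and a match describes letters only.

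Ligand genes of these receptors moved both ways. Of 10 tested ligand genes 1 fell, 2 rose and 7 did not pass, with a median log2 fold change of 0.09. Over all tested genes 11.0% were lower and 10.1% higher, so these few calls are not read as a trait of the ligands. Of the 10 ligand genes 3 rose with library totals alone or with the replicate block, and 2 fell with the stricter filter. Tnfsf18, the GITR ligand gene, had only 5, 2, 11 and 9 counts and was filtered out. Tnfsf4, which encodes OX40L, fell from 43.3 ± 1.92 to 25.4 ± 0.501 CPM (SD, n = 2 each; log2 fold change -0.77, edgeR adjusted p = 0.000222). Icosl rose from 17.4 ± 0.888 to 27.2 ± 0.0590 CPM (log2 fold change 0.65, edgeR adjusted p = 0.00240). ICOS and its ligand gene thus moved in opposite directions in the same libraries. Tnf had a log2 fold change of 0.24 (edgeR adjusted p = 0.0254), a call lost without WT replicate 1, WT replicate 2 or KO replicate 1 (edgeR adjusted p = 0.173, 0.0652 and 0.112). Tnfsf9, the 4-1BB ligand gene, was at 53.5 ± 6.98 CPM in WT and 64.8 ± 4.13 in KO (SD, n = 2 each; log2 fold change 0.27, edgeR adjusted p = 0.0705). It passed with library totals alone as the scaling and with the replicate number as a block (edgeR adjusted p = 0.0190 and 0.0340). Cd86, a ligand of CD28 on antigen-presenting cells, had a log2 fold change of -0.20 (edgeR adjusted p = 0.0535), which passed with the stricter filter (edgeR adjusted p = 0.0470). The log2 fold change of Cd86 was -0.26 without KO replicate 1 and -0.14 without KO replicate 2.

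Genes that carry the signal inside the cell were lower in part. Of 18 adaptor and kinase genes 9 fell and 9 did not pass, with a median log2 fold change of -0.27. Prkcq, which encodes PKC-theta, the kinase that CD28 engages, fell from 55.3 ± 3.29 to 19.5 ± 4.39 CPM (SD, n = 2 each; log2 fold change -1.51, edgeR adjusted p = 7.21e-06). Pik3r1, a regulatory subunit of phosphoinositide 3-kinase, had a log2 fold change of -0.59 (edgeR adjusted p = 9.47e-05), and the T cell kinase gene Lck had -0.48 (edgeR adjusted p = 0.000160). Traf1 and Traf5, named after their values were seen because their products bind receptors of this superfamily, had log2 fold changes of -0.36 and -0.87 (edgeR adjusted p = 0.00165 and 0.00122). Vav1, an exchange factor downstream of CD28, was at 178 ± 14.0 and 169 ± 6.86 CPM, and Birc3, a TRAF-bound ubiquitin ligase, at 96.0 ± 2.07 and 103 ± 15.2 CPM (SD, n = 2 each), with adjusted p-values of 0.499 and 0.457 in edgeR. The log2 fold change of Birc3 was 0.25 without KO replicate 1 and -0.05 without KO replicate 2.

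Of 10 tested survival and growth genes downstream of costimulation 5 fell and 5 did not pass, with a median of -0.22. Transcripts of other cells were present in each library, and T lineage markers fell as well. Which cells gave the levels of this list, or of the adaptors and kinases above, was not tested. Tnfaip3, which encodes A20, an NF-kappaB target that restrains the pathway, fell from 938 ± 38.3 to 582 ± 45.5 CPM (SD, n = 2 each; log2 fold change -0.69, edgeR adjusted p = 6.34e-06). The NF-kappaB subunit genes Nfkb2 and Rel had log2 fold changes of -0.32 and -0.36 (edgeR adjusted p = 0.00157 and 0.00167), and Nfkb1 had 0.09 (edgeR adjusted p = 0.362). Mcl1, a survival gene of the BCL-2 family, had -0.22 (edgeR adjusted p = 0.0194), a call lost with library totals alone, with the replicate block and without either WT library (edgeR adjusted p = 0.130, 0.0519, 0.0851 and 0.141). With library totals alone, or without WT replicate 1 or 2, 3 of the list fell instead of 5. Nfkbia, an inhibitor of NF-kappaB, stood at 1930 ± 94.5 and 1850 ± 41.1 CPM (SD, n = 2 each; edgeR adjusted p = 0.446). Il2, the cytokine gene that CD28 signalling sustains, had 9 and 6 counts in WT and 3 and 3 in KO and was filtered out.

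Inhibitory receptors that oppose these costimulators were mostly lower too. Of 6 tested, 5 fell and 1 rose, with a median log2 fold change of -0.77. Among those that fell, Pvrig, named after its values were seen, had few reads, with 124 and 137 counts in WT and 52 and 62 in KO. Its log2 fold change was -1.33 (edgeR adjusted p = 0.00668), or -1.29 without WT replicate 2. Beside Ctla4, Tigit, which competes with CD226 for PVR, fell from 412 ± 12.6 to 200 ± 3.65 CPM (SD, n = 2 each; log2 fold change -1.05, edgeR adjusted p = 5.21e-08). The ratio of Cd226 to Tigit counts was 0.100 and 0.115 in WT and 0.0840 and 0.105 in KO, so the groups overlapped. Cd96, another receptor for PVR, had a log2 fold change of -0.33 (edgeR adjusted p = 0.00260), and Pdcd1, which encodes PD-1, -0.50 (edgeR adjusted p = 2.27e-05). Set against the CD3 and the CD8 chains, Cd96 was higher in KO, at 113% and 153% of the WT ratio. Tigit was at 68.5% and 92.9%, and Ctla4 at 57.8% and 78.4%. These ratios were not tested. The gene that rose was Btla, named after its values were seen, an inhibitory receptor for HVEM (log2 fold change 0.48, edgeR adjusted p = 0.00605), whose call was lost without WT replicate 1 (edgeR adjusted p = 0.0780).

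The other costimulatory receptors did not move as a block. Of 7 tested, 1 fell, 2 rose and 4 did not pass, with a median log2 fold change of -0.22. With 11.0% of all tested genes lower and 10.1% higher, these few calls are not read as a trait of the list. Crtam, a receptor of activated CD8 T cells, fell from 55.8 ± 2.92 to 19.7 ± 1.33 CPM (SD, n = 2 each; log2 fold change -1.50, edgeR adjusted p = 7.59e-07). Tnfrsf8, which encodes CD30, rose from 8.88 ± 0.103 to 17.7 ± 2.61 CPM (log2 fold change 0.99, edgeR adjusted p = 0.00118). Havcr1, which encodes TIM-1, rose from 1.94 ± 0.712 to 6.98 ± 0.0729 CPM (log2 fold change 1.85, edgeR adjusted p = 0.000970), a gene of few reads. Cd2, an adhesion and costimulatory receptor of all T cells, was at 159 ± 11.3 and 138 ± 11.9 CPM (SD, n = 2 each; log2 fold change -0.21, edgeR adjusted p = 0.0661). The log2 fold change of Cd2 was -0.30 without KO replicate 1 and -0.12 without KO replicate 2. Cd40, which antigen-presenting cells carry, had a log2 fold change of -0.22 (edgeR adjusted p = 0.202). For Cd40 the value was -0.09 without KO replicate 1 and -0.36 without KO replicate 2.

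**Figure D4:**
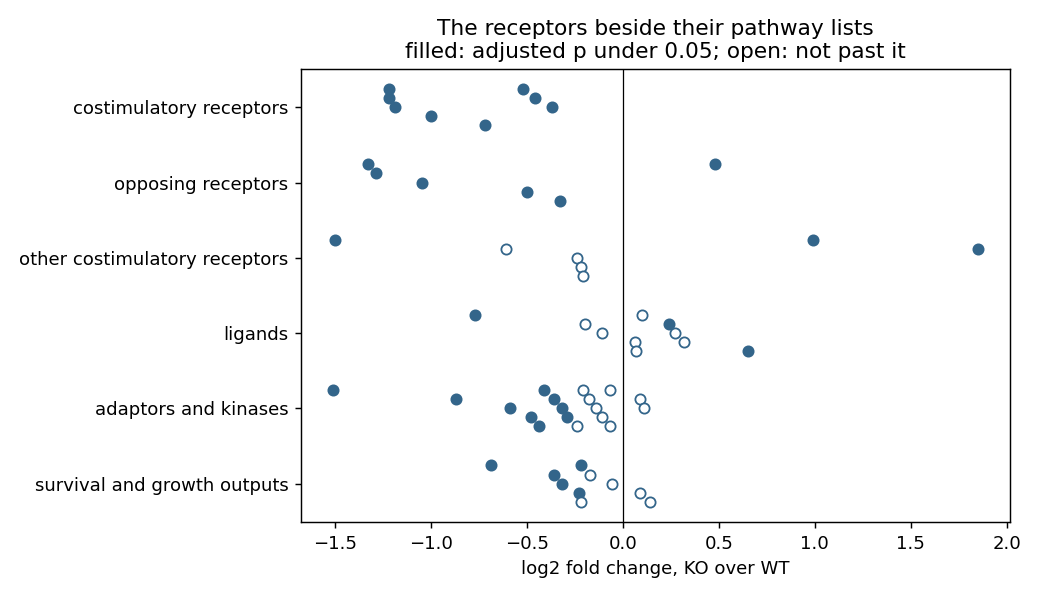
Log2 fold change, KO over WT, of each tested gene in the 8 costimulatory receptors and in 5 lists of their pathway (filled points passed an adjusted p of 0.05 in edgeR). The receptors and 5 of the 6 opposing receptors lie to the left of 0, whereas the 10 ligand genes centre on 0.09.

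The genes nearest to Tnfrsf9 in pattern were sought among 8789 tested genes with a mean of at least 10 CPM, by the root mean square distance of mean-centred log2 CPM over the 4 libraries. They were Gm8369 (distance 0.0155), Alcam (0.0393), Cd27 (0.0406) and Smap2 (0.0467). Another member was therefore among the 4 nearest to Tnfrsf9. Nearest to Cd28 were Dennd4a (0.00885), Pstpip1 (0.0111), Bin1 (0.0162) and Cxcl10 (0.0173). With 4 libraries in 2 groups such likeness mostly reflects a similar fold change, which was -1.20 for Gm8369 and -0.70 for Dennd4a on the log2 scale.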

How the data were processed

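Bulk RNA-seq of 4 libraries, 2 labelled WT and 2 labelled KO, was analysed from 1 deposited table a library. The submitters' processing notes list Trim Galore 0.4.4, featureCounts, Bowtie2, DESeq2 and edgeR, without roles, and the build mm10. The deposited counts, per the file headers, are whole reads per gene. FPKM values, also deposited per the headers, served only to order genes by level. Each listed gene had at least 20 counts over the 4 libraries.

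Counts were fitted over all genes with edgeR 4.0.16 in R 4.3.3 (TMM scaling, filterByExpr with min.count 10 and min.total.count 15, then glmQLFit with robust set and glmQLFTest). The filter removed 724 genes. A gene was called at a Benjamini-Hochberg adjusted p under 0.05. Standard errors were computed as fold change over the root of F. Common biological variation was 9.31%. Replicates differed by more than counting noise (chi-square per degree of freedom 7.74 for WT, 10.0 for KO), so each was counted once. The fitting step was first run on counts simulated from the model fitted to these libraries, with known changes added. That run checks the code and not whether the model suits these data. Depth of 24366540 to 26218277 counts leaves genes of low CPM with wide errors.

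Members and lists were chosen with earlier results of these data known, so no list was tested as a set. Named genes were the members, Smad4, Ctla4, Tigit, Cd96, Tnfrsf1a, and from each list up to 4 called genes by p and up to 2 uncalled by mean CPM; a gene this rule selects may be not reported here. Alternatives were other scalings and filters, a replicate block, leaving out each library, DESeq2 1.42.0 and limma-voom (limma 3.58.1). Positions are from GENCODE M21 (GRCm38, the assembly called mm10).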

Additional observations from a re-analysis of the deposited data

How the results depend on the processing

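All 8 receptors kept a negative fold change under each of 12 alternatives, and 93 of 96 combinations of receptor and alternative kept their call. The 3 lost calls were all of Tnfrsf1b, with -0.45 in DESeq2 (adjusted p = 0.125), -0.42 without WT replicate 1 and -0.49 without WT replicate 2. Over all 4 libraries left out in turn the value of Tnfrsf1b ran from -0.68 to -0.26. Its calls kept with a KO library left out rest on the spread of the WT libraries, not on that of the KO libraries. The count of receptors called lower was 7 in DESeq2 and 7 to 8 with a library left out. Over all genes, same-numbered replicates did not deviate together (correlation of same-numbered deviations -0.0153). This cannot show whether they were paired in a way that moves only some genes. The replicate block gave 8 receptors lower and 1522 genes lower and 1393 higher over all, against 1472 and 1354. Over all genes, 2105 were higher and 1013 lower with library totals alone, so that 67.5% of calls were higher against 47.9%, and the members' median was then -0.77. With a library left out 714 to 1605 were higher and 831 to 1787 lower, the lone library of a group being assumed to vary like the other group. Some genes that did not pass with all libraries changed sign. With library totals alone Nfkbia was 0.02 and Vav1 0.01. With a library left out the ranges were -0.28 to 0.04 for Akt1, -0.05 to 0.25 for Birc3, -0.44 to 0.49 for Nectin2, -0.03 to 0.16 for Pvr, -0.15 to 0.01 for Vav1 and -0.06 to 0.40 for Smad4, and the cause was not tested.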
